A study of Rattus norvegicus with 8 samples.

Results

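The enzymes that turn squalene into cholesterol were followed in rat liver through 9 genes, namely Sqle, Lss, Cyp51, Tm7sf2, Msmo1, Nsdhl, Hsd17b7, Sc5d and Dhcr7. They were chosen by name as the pathway's steps after squalene, and probes were assigned through the transcript accession that the array files give, with Msmo1 and Sc5d also sought under their older symbols Sc4mol and Sc5dl. Each gene had 1 probe, so that the set comprised 9 of the 13458 named genes and 9 of the 41012 probes, and all 9 passed the filter on dim probes that 26981 probes passed. The RNA came from livers of male Zucker diabetic fatty rats labelled as 12 weeks old. On 4 arrays the rats were obese (fa/fa, which lack a working leptin receptor) and on 4 arrays lean (fa/+, which carry 1 defective copy of the gene). Every array compared rats given testosterone undecanoate (TU), a slowly released testosterone ester, in Cy5 with rats of the same genotype given vehicle in Cy3. The dose was 20 mg/kg under the skin, given over 4 weeks, every 3 days during the 2 weeks at the start and weekly in the last 2 weeks. The labels call each array a biological replicate without saying how many animals gave an RNA, so that the spread between arrays may be in part technical.

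Squalene is the open-chain hydrocarbon from which the sterol rings are built. Its oxidation and closure give lanosterol, from which methyl groups are then removed and whose unsaturated bonds are then moved or reduced in the endoplasmic reticulum. In liver the genes of these enzymes are known targets of SREBP2, a membrane-bound transcription factor that is released when sterols are scarce, and the liver both secretes the product in lipoproteins and turns it into bile acids.

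The arrays carried limits that bear on these genes. All 4 obese arrays lay on 1 slide and all 4 lean arrays on another, so that genotype and slide cannot be told apart. TU was in Cy5 throughout, so that a TU over vehicle ratio also holds any dye bias of the probe, whereas the difference between the genotypes' ratios cancels a constant one. The share of probes called well above background in Cy5 was 51.18% to 61.17% on obese arrays and 54.28% to 58.23% on lean arrays, and in Cy3 it was 58.95% to 62.63% and 62.85% to 69.45%. The log2 ratios of obese replicate 2 had an SD of 0.463 over the probes that passed the filter, against 0.106 to 0.252 on the other arrays. Of the probes that were well above background in both channels on the other 7 arrays, 2.43% were dim in both channels on obese replicate 1 (462 of 19045) and 1.59% on obese replicate 4 (290 of 18271), against at most 0.38% on any other array. All 7 hepatocyte markers examined passed the filter, and Adipoq, Lep, Cd3e and Cftr were among the markers of other cells that did not.

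TU changed none of the 9 genes past the threshold, in obese or in lean rats (limma, Benjamini-Hochberg adjusted p under 0.05). In obese rats 0 of 9 were called, against 3 of 26979 probes tested (0.0111%), and in lean rats 0 of 9, against 48 of 26913 (0.178%), 30 of them higher and 18 lower. With ratios centred on the array median in place of loess, 327 probes were called higher and 6269 lower in lean rats. The median of the probes tested, which leave out dim ones, was then -0.21, and 6 of the 9 genes (Lss, Cyp51, Nsdhl, Hsd17b7, Sc5d and Dhcr7) were called lower. At an unadjusted p under 0.05 there were 7 of the 9 in obese rats, where 12.7% of all probes reached it, and 2 of the 9 in lean rats, where 15% did. The 7 genes in obese rats were split in direction, with Sqle, Tm7sf2, Msmo1 and Hsd17b7 above 0 and Lss, Nsdhl and Dhcr7 below it. The median log2 ratio of the 9 genes was -0.02 in obese rats, against -0.01 over all probes, and -0.20 in lean rats, against -0.02. The difference between the genotypes' TU responses was called for 0 of 9, against 1 of 26911 probes (0.00372%), with a median difference of 0.12 log2 units over the 9 genes.

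**Figure D1:**
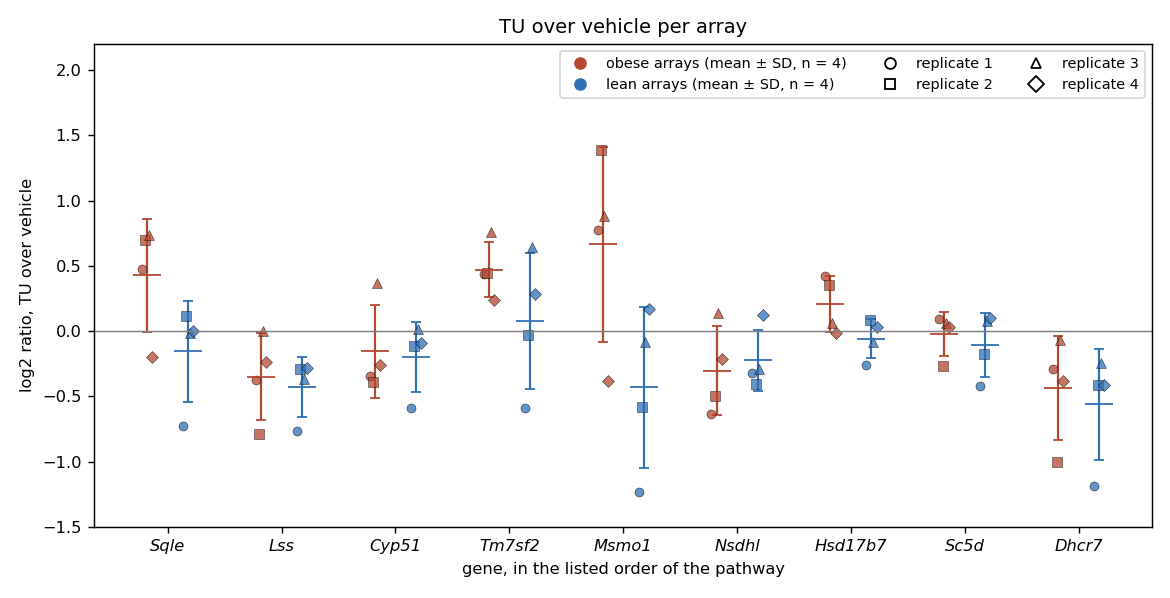
Log2 ratio of TU over vehicle for the 9 genes (vertical axis, log2 units) on each array, with obese arrays in red left of lean arrays in blue, symbols for replicate numbers, and the mean ± SD of 4 arrays. Lean replicate 1 is the lowest lean array for 8 of the 9 genes, and the obese and lean arrays overlap for every gene.

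Sqle encodes squalene epoxidase, which starts this stretch of the pathway and is one of its rate-controlling enzymes. Its log2 ratio of TU over vehicle was 0.47, 0.70, 0.74 and -0.20 on obese replicates 1 to 4, and -0.73, 0.11, -0.01 and -0.002 on lean replicates 1 to 4. Obese replicate 4 and lean replicate 1 each stood below the other arrays of their genotype. The fitted ratio was 0.43 ± 0.17 in obese rats (SE, n = 4, adjusted p = 0.384) and -0.16 ± 0.17 in lean rats (adjusted p = 0.744). The difference between the genotypes was 0.58 ± 0.25 (adjusted p = 0.652). Without lean replicate 1 the lean ratio was 0.03.

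Lss encodes lanosterol synthase, which folds the epoxide of squalene into the sterol ring system. Its ratio lay below 0 on all 8 arrays, at -0.37, -0.79, -0.0003 and -0.24 on obese replicates 1 to 4 and -0.76, -0.29, -0.37 and -0.28 on lean replicates 1 to 4. The fitted ratio was -0.35 ± 0.12 in obese rats (adjusted p = 0.372) and -0.43 ± 0.12 in lean rats (adjusted p = 0.17), and the genotypes differed by 0.08 ± 0.18. The lean value passed the threshold when obese replicate 2 was left out of the shared estimate of spread (adjusted p = 0.0391), and under array weights (0.0482). Those settings called 1188 and 857 of all probes in lean rats, against 48 in the main fit. A constant dye bias of the probe would also give ratios of the same sign in both genotypes, and the arrays cannot separate it from a TU effect.

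Cyp51 encodes the cytochrome P450 that takes the first methyl group off lanosterol. Its ratio was -0.35, -0.39, 0.37 and -0.26 on obese arrays and -0.59, -0.12, 0.01 and -0.09 on lean arrays, with obese replicate 3 apart from the other obese arrays. The fitted values were -0.16 ± 0.14 and -0.20 ± 0.14. Tm7sf2 encodes a sterol reductase that acts on the product of Cyp51, a reaction that the lamin B receptor also carries out. Its ratio was above 0 on all 4 obese arrays, at 0.44, 0.44, 0.76 and 0.24, and spread from -0.59 to 0.65 on the lean arrays. The fit gave 0.47 ± 0.17 in obese rats (adjusted p = 0.374) and 0.08 ± 0.17 in lean rats (adjusted p = 0.885), a difference of 0.39 ± 0.24 (adjusted p = 0.71).

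Msmo1, Nsdhl and Hsd17b7 act together in taking off the remaining paired methyl groups, as an oxidase, a dehydrogenase that removes the carboxyl group, and a reductase of the ketone that is left. Their promoters are shown because the 3 enzymes serve 1 reaction cycle. The 3 genes were not tested against one another, and whether promoter boxes bear on their values was not tested. The sequences are those of RefSeq on GRCr8, 250 bases before to 50 bases after the annotated start, written 5′ to 3′ on the gene's strand. They lie at chr16:29746863-29747162 (plus strand) for Msmo1, chrX:155817110-155817409 (plus strand) for Nsdhl and chr13:84722705-84723004 (minus strand) for Hsd17b7. Capitals mark CCAAT, the box of the factor NF-Y, and GGGCGG, the box of Sp1, on either strand (ATTGG and CCGCCC where the reverse strand matched).
Msmo1: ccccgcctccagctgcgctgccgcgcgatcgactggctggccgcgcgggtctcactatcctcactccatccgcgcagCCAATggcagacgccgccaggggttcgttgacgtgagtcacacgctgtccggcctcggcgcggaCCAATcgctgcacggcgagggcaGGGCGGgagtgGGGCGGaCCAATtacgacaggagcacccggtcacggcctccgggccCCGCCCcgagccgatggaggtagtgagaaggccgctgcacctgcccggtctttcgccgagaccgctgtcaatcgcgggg
Nsdhl: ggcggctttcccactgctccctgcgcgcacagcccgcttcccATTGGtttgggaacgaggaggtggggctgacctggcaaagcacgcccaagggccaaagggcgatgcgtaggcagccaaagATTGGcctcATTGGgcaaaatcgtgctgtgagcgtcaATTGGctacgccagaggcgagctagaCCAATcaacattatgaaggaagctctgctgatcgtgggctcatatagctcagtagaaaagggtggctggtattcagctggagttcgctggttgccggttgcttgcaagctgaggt
Hsd17b7: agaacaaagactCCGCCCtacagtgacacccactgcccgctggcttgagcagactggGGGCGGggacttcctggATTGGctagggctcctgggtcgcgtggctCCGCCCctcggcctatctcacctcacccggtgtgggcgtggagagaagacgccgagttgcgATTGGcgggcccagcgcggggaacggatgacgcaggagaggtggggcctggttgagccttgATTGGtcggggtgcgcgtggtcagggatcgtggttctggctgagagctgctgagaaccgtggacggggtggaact
Msmo1 and Hsd17b7 each held 3 CCAAT and 3 GGGCGG matches, whereas Nsdhl held 5 CCAAT and 0 GGGCGG matches. No promoter of Sqle was available. Of the 8 other genes of the set, 6 held CCAAT, as did 37.5% of 33469 promoters, and 7 held GGGCGG, as did 33.1%. The core of the sterol response element, TCACNCCAC, was found in 0 of the 8 and in 1.12% of all promoters. Only this spelling was sought, within the stated window, so the lack of a match does not show that a promoter lacks the element. CCAAT and GGGCGG did not overlap in the printed sequences, and a match of letters does not show that a factor binds there.

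Msmo1 had TU ratios of 0.77, 1.39, 0.88 and -0.38 on obese replicates 1 to 4 and -1.23, -0.58, -0.08 and 0.17 on lean replicates 1 to 4. Obese replicate 4 was the exception among obese arrays, and it lay below lean replicates 3 and 4. The fitted ratio was 0.67 ± 0.29 in obese rats (adjusted p = 0.391), a 1.59-fold difference, and -0.43 ± 0.29 in lean rats (adjusted p = 0.541), which was -0.17 without lean replicate 1. The difference between the genotypes, 1.10 ± 0.41 (adjusted p = 0.641), was the largest of the 9 genes and ranged from 0.83 to 1.45 when each array was left out in turn. Nsdhl had ratios of -0.64, -0.50, 0.14 and -0.22 on obese arrays and -0.32, -0.41, -0.29 and 0.12 on lean arrays, fitted as -0.30 ± 0.13 (adjusted p = 0.386) and -0.22 ± 0.13 (adjusted p = 0.461). Hsd17b7 had ratios of 0.42, 0.35, 0.06 and -0.01 on obese arrays and -0.26, 0.08, -0.08 and 0.03 on lean arrays, fitted as 0.21 ± 0.09 (adjusted p = 0.386) and -0.06 ± 0.09 (adjusted p = 0.818). The Hsd17b7 probe had low signals, 109 to 276 over both channels, though it was well above background in both on every array. On obese replicate 3 the authors' deposited table gives it a log2 ratio of 0.87.

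Sc5d and Dhcr7 encode enzymes near the end of the pathway, a desaturase of the sterol ring and the reductase whose loss causes Smith-Lemli-Opitz syndrome in humans. The TU ratio of Dhcr7 was below 0 on all 8 arrays, at -0.29, -1.004, -0.07 and -0.38 on obese replicates 1 to 4 and -1.18, -0.41, -0.24 and -0.41 on lean replicates 1 to 4. The most negative arrays were obese replicate 2 and lean replicate 1. The fit gave -0.44 ± 0.18 in obese rats (adjusted p = 0.383) and -0.56 ± 0.18 in lean rats (adjusted p = 0.194), and without lean replicate 1 the lean value was -0.35. Sc5d had ratios of 0.09, -0.27, 0.06 and 0.03 on obese arrays and -0.42, -0.17, 0.07 and 0.10 on lean arrays. On obese replicate 1 its spot was not well above background in either channel, with signals of 56 in Cy5 and 34.5 in Cy3, so that neither signal is more than an upper bound.

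Some arrays stood low or high for most of the 9 genes. The mean log2 ratio over the 9 genes was 0.06, -0.01, 0.33 and -0.16 on obese replicates 1 to 4, and -0.68, -0.20, -0.04 and -0.01 on lean replicates 1 to 4. Lean replicate 1 gave the lowest lean ratio for 8 of the 9 genes, with Nsdhl as the exception, and the lowest lean Cy5 level for 8 of them. In its Cy3 channel it was lowest for 3. Without it the members' median TU ratio in lean rats was -0.06 in place of -0.20, and the median difference between the genotypes was -0.02 in place of 0.12. Obese replicate 3 gave the highest obese ratio for 6 of the 9. Among 9821 other named genes, those whose ratios over the 8 arrays were most like the members' mean were Mvd (Pearson r = 0.97), which makes isopentenyl diphosphate, Aacs (0.962), which activates acetoacetate for lipid synthesis, Top1 (0.937), a DNA topoisomerase, H1f6 (0.894), a linker histone, and Epas1 (0.89), a hypoxia-inducible factor. Spearman's rho was 0.619 for H1f6 and 0.905 to 0.976 for the others named. These values describe 8 arrays, whose points share array and dye pair with the genes compared.

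Between genotypes, none of the 9 genes was called under TU, and 3 were lower in obese than in lean livers under vehicle. They were Sqle, by 2.23-fold, Msmo1, by 1.77-fold, and Hsd17b7, by 1.31-fold, and none was called higher. Under TU, 5558 of 26911 probes were called (20.7%), of which 3257 were higher and 2301 lower, and 0 of the 9 genes reached an unadjusted p under 0.05, against 34.4% of all probes. Under vehicle, 4109 of 26911 probes were called (15.3%), 2203 higher and 1906 lower. There 3 of the 9 genes reached an unadjusted p under 0.05, against 31.6% of all probes. Under vehicle all 4 obese arrays lay below all 4 lean arrays for Sqle, Msmo1 and Hsd17b7, as for 3178 of 26582 probes (12.0%). The median difference over the 9 genes was -0.13 under TU, against 0.02 over all probes, and -0.34 under vehicle, against 0.02. With channels centred on the median in place of both loess and the between-array normalization, 6 probes were called higher and 464 lower under vehicle. The median of the probes tested then lay at -0.16, and none of the 9 genes was called. Lower RNA per cell and fewer cells that hold it cannot be told apart in whole liver.

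**Figure D2:**
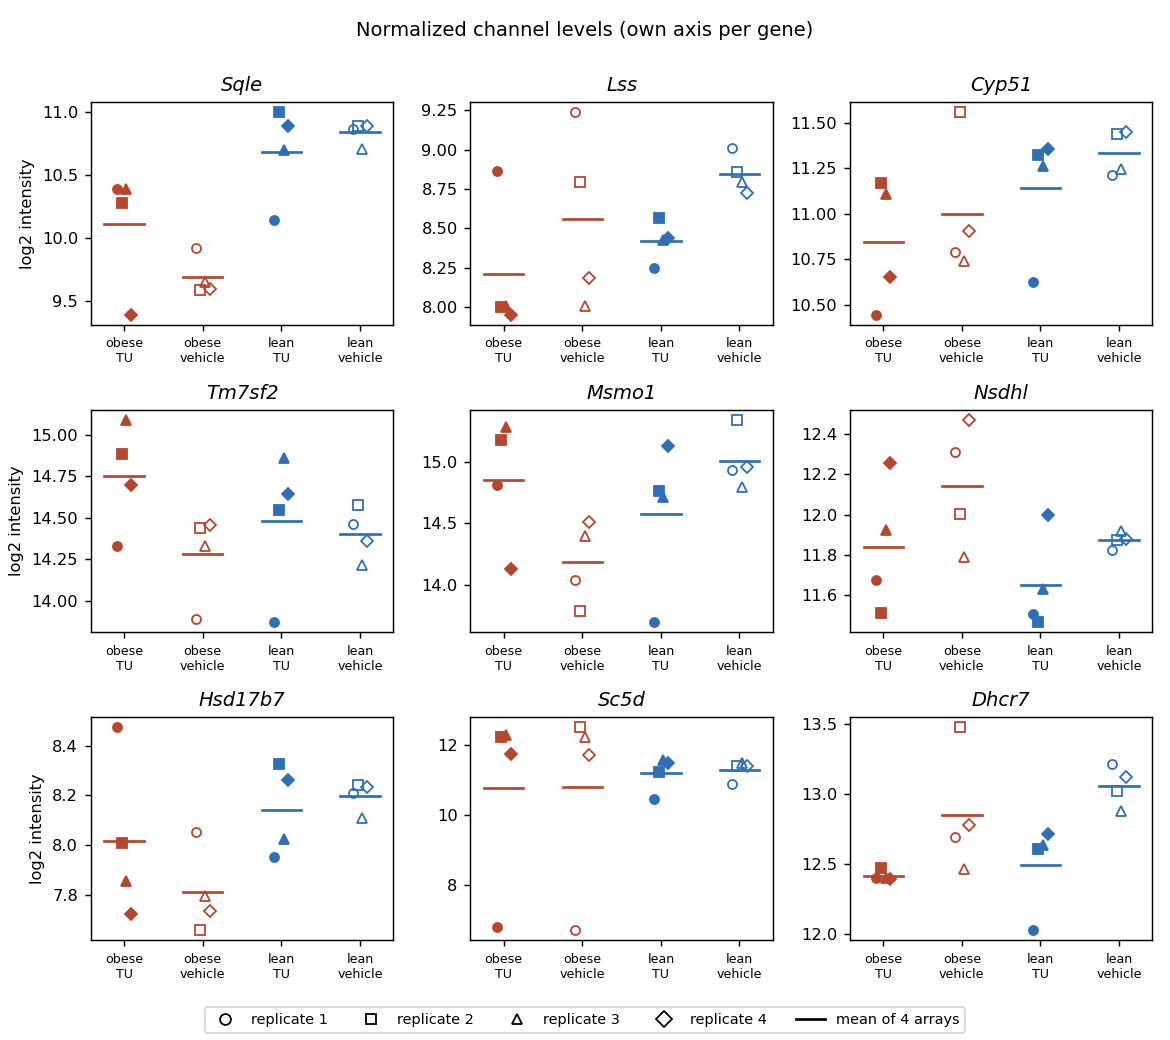
Normalized log2 intensity of the 9 genes on each array (vertical axis, a scale of its own for every gene), from left to right obese TU, obese vehicle, lean TU and lean vehicle, with filled symbols for TU, open symbols for vehicle and a line at the mean of 4 arrays. The obese vehicle points of Sqle, Msmo1 and Hsd17b7 lie below all lean vehicle points, and Sc5d on obese replicate 1 lies apart in both channels.

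For Sqle, the log2 level under TU was 10.39, 10.28, 10.39 and 9.39 on obese replicates 1 to 4, against 10.144, 11.004, 10.699 and 10.893 on lean replicates 1 to 4, and the groups overlapped through lean replicate 1. The difference was -0.57 ± 0.27 (adjusted p = 0.178). Under vehicle the level was 9.92, 9.58, 9.65 and 9.59 on obese replicates 1 to 4, against 10.87, 10.89, 10.71 and 10.90 on lean replicates 1 to 4. The gap between the groups was wider than the spread within either. The difference was -1.16 ± 0.089 (SE, n = 4 each, adjusted p = 0.000533), and it kept its call with each array left out in turn (adjusted p from 0.000263 to 0.00416). It was lost with median centring alone (-2.04, adjusted p = 0.168), of 18 alternatives. The test of whether the genotypes' gap differed between TU and vehicle is the genotype difference of the TU response given above, which was not called. Under TU, Lss on obese replicate 1 (8.87) stood above the other obese arrays (7.95 to 8.01), and without that array the difference from lean livers was -0.43 and called (adjusted p = 0.00638). In that fit 8572 of 26908 probes were called, against 5558 of 26911 with all arrays. Lss levels under vehicle ran from 8.01 to 9.24 in obese livers, against 8.72 to 9.01 in lean livers, a difference of -0.29 ± 0.26 (adjusted p = 0.488).

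Cyp51 levels under vehicle were 10.79, 11.56, 10.74 and 10.91 on obese arrays, against 11.21, 11.44, 11.25 and 11.45 on lean arrays, with obese replicate 2 above every lean array. The difference was -0.34 ± 0.18 (adjusted p = 0.247), and it was called without obese replicate 2 (-0.52, adjusted p = 0.00829) and under array weights (-0.45, adjusted p = 0.037). Those fits called 5082 and 6648 of all probes under vehicle, against 4109 in the main fit. Tm7sf2 overlapped in both channels, with differences of 0.27 ± 0.24 under TU (adjusted p = 0.469) and -0.12 ± 0.14 under vehicle (adjusted p = 0.594).

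Msmo1 levels under TU were 14.81, 15.18, 15.28 and 14.13 in obese livers, against 13.70, 14.76, 14.71 and 15.13 in lean livers, a difference of 0.28 ± 0.35 (adjusted p = 0.628) that became -0.01 without lean replicate 1. Under vehicle they were 14.04, 13.79, 14.40 and 14.51 in obese livers, against 14.93, 15.34, 14.79 and 14.96 in lean livers, with the highest obese array below the lowest lean one. The vehicle difference was -0.82 ± 0.18 (adjusted p = 0.0252). It lost its call without lean replicate 1 (adjusted p = 0.0668), lean replicate 2 (0.069) or lean replicate 4 (0.0696), and under array weights (-0.63, adjusted p = 0.05). Hsd17b7 levels under vehicle were 8.05, 7.66, 7.79 and 7.73 in obese livers, against 8.21, 8.24, 8.11 and 8.24 in lean livers. Obese replicate 1, at 8.05, came closest to the lowest lean array, at 8.11. The difference was -0.39 ± 0.090 (adjusted p = 0.0282). It lost its call without any lean array (adjusted p from 0.0602 to 0.0833), without obese replicate 3 (0.0592) or 4 (0.0647), and on the scanner software's processed signals (0.144). Nsdhl, between these enzymes in the cycle, had vehicle levels of 12.31, 12.00, 11.79 and 12.47 in obese livers, against 11.82, 11.87, 11.92 and 11.88 in lean livers. Its difference was 0.19 ± 0.18 under TU (adjusted p = 0.507) and 0.27 ± 0.14 under vehicle (adjusted p = 0.238), and on the processed signals it was 0.66 under TU (adjusted p = 0.0216) and 0.78 under vehicle (0.0108). Those signals gave 8499 called probes under TU and 6575 under vehicle, against 5558 and 4109 in the main fit.

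**Figure D3:**
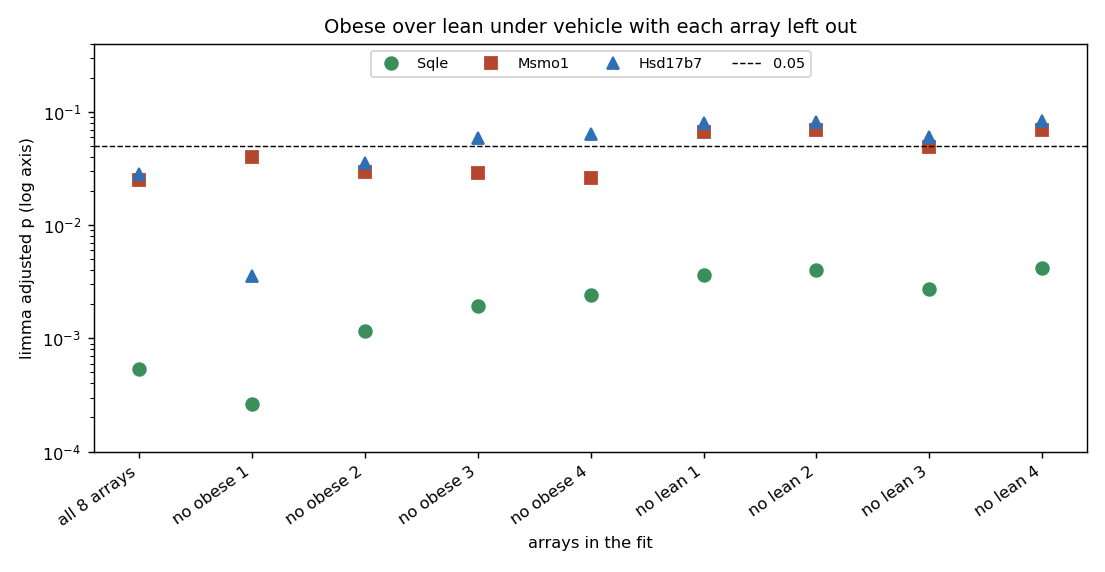
Adjusted p of the obese over lean difference under vehicle (log axis) for Sqle, Msmo1 and Hsd17b7, with all 8 arrays and with each array left out. Sqle stays between 0.000263 and 0.00416 without any 1 array, while Msmo1 and Hsd17b7 lie on both sides of the dashed line at 0.05.

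For Sc5d, 1 spot set the direction of the difference. Under vehicle its levels were 6.71, 12.52, 12.23 and 11.73 in obese livers, against 10.89, 11.41, 11.50 and 11.41 in lean livers, so that 3 of 4 obese arrays lay above every lean array and obese replicate 1, at background, below them all. Fdft1, which makes squalene, was likewise dim on obese replicate 1, at 6.65 in Cy5 and 6.71 in Cy3. With that spot included the Sc5d difference under vehicle was -0.50 ± 1.22 (adjusted p = 0.817). Without obese replicate 1, the probes called rose from 5558 to 8572 under TU and from 4109 to 5730 under vehicle. The Sc5d difference was then 0.91 under TU (adjusted p = 0.0423) and 0.86 under vehicle (adjusted p = 0.0381). With all spots dim in both channels set to missing, a choice made after the data were seen, it was 0.90 under TU (adjusted p = 0.0639) and 0.86 under vehicle (adjusted p = 0.0497). Dhcr7 levels under TU lay between 12.40 and 12.47 in obese livers, against 12.03 to 12.71 in lean livers, and without lean replicate 1 the difference was -0.23 and called (adjusted p = 0.0366). That fit called 3552 probes, against 5558 with all arrays. Under vehicle the Dhcr7 levels were 12.70, 13.48, 12.47 and 12.78 in obese livers, against 13.21, 13.02, 12.88 and 13.13 in lean livers, and only obese replicate 2 exceeded a lean array. The difference was -0.20 ± 0.21 (adjusted p = 0.545), and without obese replicate 2 it was -0.41 and called (adjusted p = 0.0409). There 5082 probes were called, against 4109 with all arrays.

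Of 8 mevalonate pathway enzymes, which act before squalene, 2 were lower in obese livers under TU and 3 under vehicle, and none was called higher, against 20.7% and 15.3% of all probes called in either direction. Idi1, the isomerase of isopentenyl diphosphate, differed by -1.48 ± 0.25 under TU (adjusted p = 0.00639) and by -2.15 ± 0.25 under vehicle (adjusted p = 0.00237), more than any of the 9 genes after squalene. Its vehicle levels were 9.68, 9.13, 10.28 and 10.29 in obese livers, against 11.96 to 12.02 in lean livers. Acat2, the cytosolic thiolase that starts the pathway, differed by -0.94 ± 0.26 (adjusted p = 0.0364) and -0.86 ± 0.12 (adjusted p = 0.00483), and Hmgcs1, which makes HMG-CoA, by -0.32 ± 0.25 (adjusted p = 0.411) under TU and -1.45 ± 0.27 (adjusted p = 0.0145) under vehicle. The median of these 8 enzymes was -0.42 under TU and -0.54 under vehicle. Both medians include the Fdft1 spot of obese replicate 1, which was not well above background in either channel (6.71 under vehicle). On obese replicates 2 to 4 the Fdft1 vehicle level was 10.39, 9.83 and 9.31, against 8.94 to 9.81 in lean livers. That spot thus weighs on the direction of the Fdft1 difference, and the medians were not recomputed without it. None of them was called for TU in either genotype. Hmgcs1 had the largest obese TU ratio (0.86 ± 0.28, adjusted p = 0.362) and genotype difference (1.13 ± 0.40, adjusted p = 0.641), and Mvd the largest lean one (-0.68 ± 0.19, adjusted p = 0.167).

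**Figure D4:**
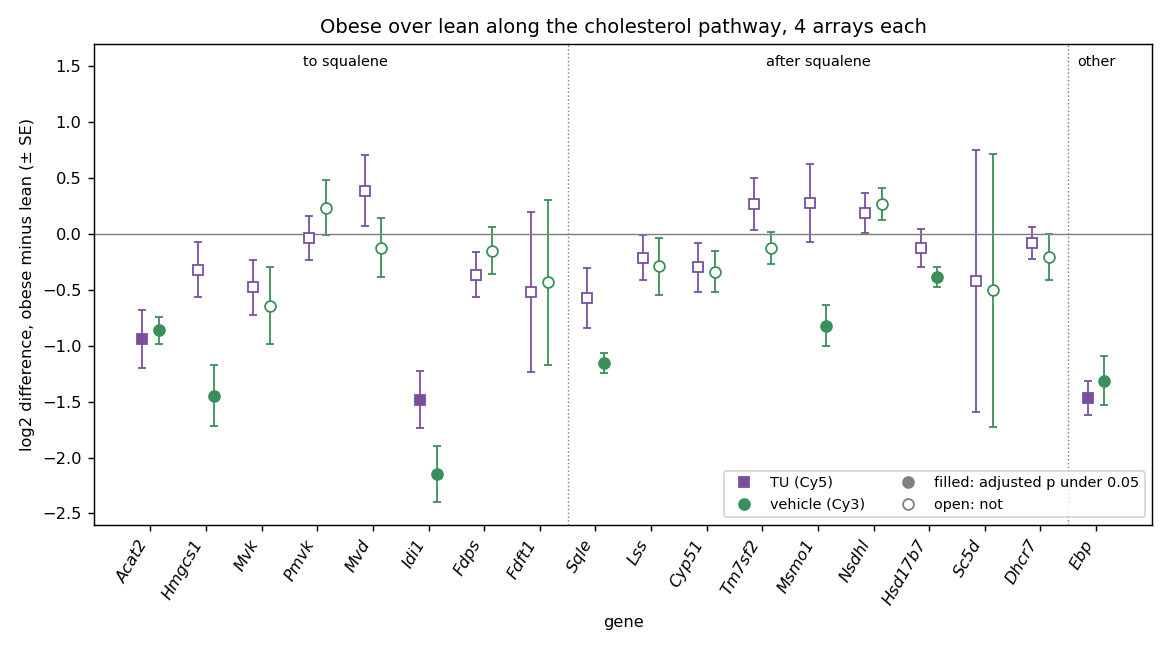
Log2 difference of obese minus lean livers (± SE of the limma fit, 4 arrays each, 3 obese arrays for Ebp) under TU (squares) and vehicle (circles) for 8 enzymes up to squalene, the 9 genes after squalene, and Ebp. Filled symbols mark an adjusted p under 0.05, as for Idi1 at -1.48 and -2.15, while no gene of the 9 is filled under TU. The values of Fdft1 and Sc5d include spots of obese replicate 1 that were not well above background.

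Other sterol enzymes beside the 9 genes also differed between genotypes. Ebp, the sterol isomerase that acts before Sc5d, was lower in obese livers, with a log2 difference of -1.47 ± 0.15 under TU (adjusted p = 0.0015) and -1.31 ± 0.22 under vehicle (adjusted p = 0.0133). Its spot on obese replicate 4 was marked as non-uniform and left out of both fits. Ch25h, which makes a regulatory oxysterol, had dim spots, well above background under TU on 4 of 4 obese and 3 of 4 lean arrays. It was called higher under TU (0.36 ± 0.10, adjusted p = 0.045) and differed by 0.06 ± 0.09 under vehicle (adjusted p = 0.675). Of 3 measured genes of that list, 1 was thus called higher and 1 lower under TU, and 0 higher and 1 lower under vehicle. The share of all probes called was 20.7% under TU and 15.3% under vehicle. Among 4 electron donors of these oxidases, Cyb5b, a cytochrome b5, was higher by 0.55 ± 0.06 (adjusted p = 0.00131) under TU and 0.60 ± 0.09 (adjusted p = 0.00512) under vehicle. Por, which feeds electrons to Cyp51 and Sqle, differed by 0.85 ± 0.31 under vehicle (adjusted p = 0.106), with obese replicate 2 at 11.75 and the other obese arrays at 10.13 to 10.82.

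Of 6 measured genes that control SREBP processing, 0 were called in either genotype comparison, and 1 of 6 reached an unadjusted p under 0.05 in each. Of all probes, 20.7% were called under TU and 15.3% under vehicle, and 34.4% and 31.6% reached that unadjusted p. Scap, the escort of SREBP, had the largest difference under TU (0.51 ± 0.19, adjusted p = 0.103). Insig1, which holds SREBP in the endoplasmic reticulum, had the largest under vehicle (-0.87 ± 0.42, adjusted p = 0.208, with 3 obese arrays). Among 2 measured SREBP2 targets outside synthesis, Tmem97, a sterol-responsive membrane protein, was higher in obese livers under TU (0.34 ± 0.08, adjusted p = 0.0177) and vehicle (0.62 ± 0.12, adjusted p = 0.0142). None of these lists of sterol genes had a gene called for TU.

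Cell type markers are given beside these values, with 20.7% of all probes called under TU and 15.3% under vehicle. Of the 7 hepatocyte markers, 2 were higher in obese livers under TU and 3 under vehicle, with none lower, and their mean log2 level per array ran under vehicle from 13.31 to 14.54 in obese livers, against 13.57 to 13.74 in lean livers. TU over vehicle was called for 0 of the 7 in obese rats and 1 in lean rats, Ambp, a precursor of plasma proteins (0.76 ± 0.10, adjusted p = 0.035). The mean log2 ratio of the 7 ran from -0.57 to 0.26 on obese arrays and from 0.11 to 0.29 on lean arrays. Of 6 stellate cell markers, 3 were higher and 1 lower under TU, and 2 higher and 1 lower under vehicle, where their mean level ran from 9.60 to 10.03 against 9.67 to 9.84. None of the 3 erythroid markers was called between genotypes, although their mean TU over vehicle ratio ran from -1.39 to 0.33 in obese rats, against 0.49 to 0.84 in lean rats. Of the other markers that passed, 1 of 7 for Kupffer cells and macrophages was higher and 1 lower under TU, 2 of 3 for sinusoidal endothelium were lower under TU, 1 of 2 for lymphocytes was lower under TU and under vehicle, and none of 2 for cholangiocytes or 1 for adipocytes was called. The part of cell composition in the values of the 9 genes was not tested.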

How the data were processed

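Liver RNA was measured on 8 dual-colour Agilent rat arrays. Per the file headers, Agilent Feature Extraction 10.7.3.1 wrote the deposited intensities of spots and their backgrounds, of which the medians over pixels were used. The deposited log10 ratio is that of TU (red) over vehicle (green) after the software's own background subtraction and dye normalization, per the file headers. Other deposited columns hold flags for spots above background, non-uniform, saturated or control, per the file headers. The authors' deposited table holds log2 ratios of unknown normalization. That they are TU over vehicle on a log2 scale follows from their slope of 3.30 to 3.32 on the scanner's log10 ratios. Their array medians lay between 0.046 and 0.140. The number of columns mapped to no sample was 0.

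Signals were corrected with normexp (offset 50) and normalized by loess within arrays and, for single channels, by Aquantile, in limma 3.58.1 with R 4.3.3. Control and non-uniform spots were left out. A probe passed if 4 or more of the 8 arrays marked it well above background in Cy3 or Cy5. Tests were limma's lmFit and eBayes over all passing probes, with Benjamini-Hochberg adjustment at 0.05, checked on simulated data. Medians and shares called that are given for all probes are over the passing probes tested. TU responses used all 8 arrays, and obese and lean livers were compared within Cy5 (TU) and Cy3 (vehicle). Errors are SEs of the fit unless named otherwise, and fold changes are antilogs of log2 differences. The number of arrays limits the precision. The newer annotation named 16815 probes, the older alone 195, and 24002 had no name.

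Of every list of sterol genes, the reported genes past the threshold and the largest difference are named, cell markers are counted (Ambp was named after its values were seen), and 5 genes most like the members' mean ratio. Some listed genes are not reported here and were left out of their lists' counts. The members and lists were chosen with earlier results of these data known. Replicate numbers were not used as pairs, since the labels give nothing that pairs lean with obese arrays. The deviations of same-numbered arrays from their genotype means correlated with r of 0.0593, -0.102, 0.158 and -0.0124. Alternatives changed the background correction, signals, filter, normalization, model and arrays, and 1 (dim spots set to missing) was added after the data were seen.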

Additional observations from a re-analysis of the deposited data

Results flagged for a closer look

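Among 54 sets of 4 arrays examined (9 genes, 3 quantities, 2 genotypes), 11 held an array that stood apart by Dixon's ratio for 4 samples. Chance marks about 1 in 20 such sets if they are independent. These are not, since each ratio comes from the same Cy5 and Cy3 levels and the genes share arrays. The values are normalized log2 levels or log2 ratios, and no cause was tested.

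On obese arrays, Sc5d stood apart on replicate 1 in Cy5 (6.8043, against 11.757 to 12.296 on the others) and in Cy3 (6.7106, against 11.726 to 12.517), where its spot was not well above background. Sqle was low in Cy5 on obese replicate 4 (9.3899, against 10.282 to 10.391). Lss was high in Cy5 on obese replicate 1 (8.8671, against 7.9509 to 8.008). Dhcr7 was high in Cy5 on obese replicate 2 (12.474, against 12.395 to 12.401), a gap of small size among tight values.

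Lean replicate 1 stood apart 5 times, each time on the low side. Its ratio was -0.727 for Sqle (against -0.01107 to 0.1149) and -0.7644 for Lss (against -0.3665 to -0.2849). Its Cy5 level was 10.622 for Cyp51 (against 11.262 to 11.356) and 12.03 for Dhcr7 (against 12.609 to 12.714), and its Cy3 level was 10.889 for Sc5d (against 11.407 to 11.499). Sqle was also low in Cy3 on lean replicate 3 (10.71, against 10.871 to 10.895).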

How the results depend on the processing

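Called probes and genes of the 9 are counted below, and values are log2 differences. TU over vehicle in obese rats gave 3 called probes (3 higher, 0 lower). The count was 23 with no background correction, 209 on the processed signals (152 higher, 57 lower), 203 on the authors' log2 ratios and 178 with array weights. It was 0 with trend and robust fits, median centring, ratios scaled between arrays, each genotype alone and a replicate block, and 0 to 2 with each array left out. The median of the 9 genes was 0.26 on the processed signals and on the authors' ratios, 0.2348 with median centring and 0.2339 with scaled ratios. Sc5d turned to 0.2606 on both the processed signals and the authors' ratios, 0.0439 with array weights, 0.2348 with median centring, 0.128 with scaled ratios and between -0.05926 and 0.06215 with an array left out. Cyp51 turned to 9.295e-05 with array weights, 0.04843 with median centring and 0.6522 with scaled ratios, and Nsdhl to 0.09402 with the last.

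In lean rats the 48 called probes (30 higher, 18 lower) became 326 with no background correction, 276 on the processed signals (142 higher, 134 lower), 278 on the authors' ratios, 857 with array weights, 6596 with median centring and 311 with lean rats alone. They became 0 with trend and robust fits and with scaled ratios, 23 with a replicate block, and 1 to 1188 with an array left out. Called genes of the 9 were 1 with array weights, 6 with median centring (median -0.7264) and 0 to 1 with an array left out (1 without obese replicate 2). Hsd17b7 turned to 0.04182 on the processed signals and the authors' ratios and Tm7sf2 to -0.4019 with median centring. With an array left out, Sqle ran from -0.2467 to 0.03392, Tm7sf2 from -0.1129 to 0.2998 and Hsd17b7 from -0.105 to 0.01008.

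The genotype difference of the TU response (1 called probe) gave 2 on the processed signals and on the authors' ratios, 14 with array weights, 0 with no background correction, trend and robust fits, median centring, scaled ratios and a replicate block, and 0 to 3 with an array left out. Median centring gave a median of 0.8773 over the 9 genes, where the probes tested had 0.211. Nsdhl turned to 0.1263 with array weights, 0.7043 with median centring and 0.3216 with scaled ratios. With an array left out, Lss ran from -0.03899 to 0.224, Cyp51 from -0.1349 to 0.1178, Nsdhl from -0.2256 to 0.03544, Sc5d from -0.02064 to 0.1679 and Dhcr7 from -0.08268 to 0.3135.

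Between genotypes under TU, the 5558 called probes became 8499 on the processed signals, 9464 with array weights, 0 with median centring and 3535 to 8572 with an array left out. Called genes of the 9 were 1 on the processed signals (Nsdhl), 1 with array weights (Lss) and 0 to 2 with an array left out. Hsd17b7 turned to 0.1577 on the processed signals, and with median centring Tm7sf2 turned to -0.1371, Msmo1 to -0.134 and Nsdhl to -0.07145. Sc5d turned to 0.6956 with array weights and 0.9037 without dim spots, and ran from -1.038 to 0.9056 with an array left out, as Msmo1 did from -0.01383 to 0.5168. Under vehicle, the 4109 called probes became 6575 on the processed signals, 6648 with array weights, 1694 with a replicate block, 470 with median centring and 1736 to 5730 with an array left out. With array weights Msmo1 lost its call (-0.6308, adjusted p = 0.05) and Cyp51 gained one (-0.4503, adjusted p = 0.037). The 3 called genes became 1 with a replicate block (Sqle, adjusted p = 0.0149, against 0.0905 for Msmo1 and 0.0744 for Hsd17b7), 0 with median centring (median -1.319) and 1 to 5 with an array left out. Sc5d turned to 0.09819 with array weights and 0.8572 without dim spots, and ran from -1.095 to 0.8592. Nsdhl turned to -0.7649 with median centring, and Tm7sf2 ran from -0.1869 to 0.001035 with an array left out.

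Of 855 values of single genes of the 9 under an alternative, 783 kept direction and side of the threshold, 40 changed sign, 16 lost a call and 19 gained one, of which 3 (Sc5d between genotypes) also changed sign. The causes of these changes were not tested. The replicate block moved no other call of the 9 genes. Limits are 1 probe for each gene, 4 arrays for each genotype, dyes in 1 orientation and genotype on separate slides. Others are the low signals of Hsd17b7 and, on obese replicate 1, the Sc5d spot at background.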

Other observations

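Genes that respond to oxysterols through LXR, the receptor that senses a surplus of sterol, were also compared between genotypes. Of 7 such genes, 2 were higher and 1 lower in obese livers under TU, where 20.7% of all probes were called, and 2 higher and 3 lower under vehicle, where 15.3% were. Abcg5, which with Abcg8 exports sterols into bile, differed by -1.96 ± 0.27 under TU (adjusted p = 0.00262) and -3.42 ± 0.32 under vehicle (adjusted p = 0.00106, limma). Its log2 levels under vehicle were 7.06, 6.49, 8.01 and 6.90 in obese livers, against 10.95, 10.57, 10.14 and 10.50 in lean livers, and its spots were well above background in both channels on all 8 arrays. Abcg8 was not well above background on any obese array in Cy5 or Cy3 and was called lower under vehicle (adjusted p = 0.0418). By the group means, lean livers were there at least 1.16-fold higher. That bound sets each obese array at its own level or, if higher, at the lowest level of a probe well above background. It leaves out the spread between arrays, whose vehicle levels were 6.59 to 6.77 in obese and 6.85 to 6.93 in lean livers. Mylip, a ubiquitin ligase, was lower under vehicle (-0.45 ± 0.13, adjusted p = 0.0497). Abca1, which loads cholesterol onto apolipoprotein A1, was higher (0.55 ± 0.09 under TU and 0.42 ± 0.07 under vehicle, adjusted p = 0.00495 and 0.00891), as was Lpcat3, a phospholipid acyltransferase (0.74 ± 0.10 and 0.95 ± 0.25, adjusted p = 0.00239 and 0.0435).

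Abcg5 also had the largest TU values of that list, none of which passed the threshold. Its log2 ratio was 0.76 ± 0.29 in obese rats (adjusted p = 0.378) and -0.70 ± 0.29 in lean rats (adjusted p = 0.306), and the genotypes differed by 1.46 ± 0.41 (adjusted p = 0.641). The largest TU ratios of other lists were those of Insig1 in obese rats (0.54 ± 0.32, adjusted p = 0.463), of Cyb5r3, a cytochrome b5 reductase, in obese rats (-0.79 ± 0.26, adjusted p = 0.362) and lean rats (-0.42 ± 0.26, adjusted p = 0.496), and of Tmem97 in obese rats (-0.31 ± 0.08, adjusted p = 0.301). They were also those of Ch25h in obese rats (0.22 ± 0.09, adjusted p = 0.383) and lean rats (-0.08 ± 0.09, adjusted p = 0.753), and in lean rats of Insig2, a partner of Insig1 (0.29 ± 0.16, adjusted p = 0.464), and Stard4, a sterol carrier (0.25 ± 0.125, adjusted p = 0.407). The largest genotype differences of the TU response were those of Insig1 (0.60 ± 0.42, adjusted p = 0.734), Por (-0.52 ± 0.36, adjusted p = 0.734), Ch25h (0.29 ± 0.12, adjusted p = 0.652) and Tmem97 (-0.28 ± 0.11, adjusted p = 0.65).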
